A study of Mus musculus with 12 samples.

Results

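Spty2d1 encodes a chaperone of histones H3 and H4. It is the vertebrate relative of yeast Spt2, a chromatin protein that in yeast works where RNA polymerase passes through nucleosomes. Histone chaperones hold histones while nucleosomes are taken apart and put back, which lets RNA polymerase pass and the chromatin close again behind it. The measurements came from mouse hippocampus, where the seizure-inducing glutamate receptor agonist kainate switches on a wave of immediate early genes within the first hour.

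On the Affymetrix MG-U74B array named in the series title, Spty2d1 is 1 of 7542 genes with a probe set of their own, and 3 of 12411 probe sets were annotated to it alone. Of these, 2 carry the same sequence accession in the platform annotation. They are called the f probe set and the r probe set, after the suffix of their identifiers. The third probe set, with a plain suffix, carries another accession. At least 3 such probe sets were found for 611 of the genes. Spty2d1 was chosen by values of these arrays, namely the high kainate change of the f probe set in control arrays and its low level in mutant arrays after kainate. These 2 comparisons, and the difference of kainate changes, which draws on the arrays of both, are therefore described for that probe set without a test. Tests are given for its other comparisons and for the r probe set. Those other comparisons of the f probe set also share some arrays with the choice. Their p-values, intervals and ranks are therefore not independent of the choice.

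The samples were 12 arrays, 3 in each of 4 groups: mutant mice given kainate, control mice given kainate, mutant mice given saline and control mice given saline. The mice were littermates of both sexes, 5 to 6 weeks old, housed singly and handled for 5 days. Kainate was injected intraperitoneally at 20 mg/kg, hippocampi were taken 1 h after injection, and each array carried RNA pooled from 3 animals. By the series title, the mutant mice lacked CREB and CREM, transcription factors that respond to cAMP. The labels name neither the alleles nor the Cre line nor the strain, so which cells had lost either factor is not known from them.

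The targeted genes did not settle the genotype. The Creb1 probe set averaged 7.97 ± 0.439 (SD, n = 3) in mutant kainate arrays against 6.98 ± 0.154 in control kainate arrays, and 8.23 ± 0.117 in mutant saline arrays against 7.35 ± 0.35 in control saline arrays. It was thus higher, not lower, under the mutant label. The Crem probe set lay between 2.82 and 3.35 on every array, below the level needed for testing. The labels do not say whether these probes fall inside the deleted exons, and the arrays are called labelled mutant from here on.

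Values are GCRMA signals in log2 units, so a difference of 1 is a doubling. Array medians lay between 3.77 and 4.07. The test covered the 6334 probe sets that exceeded 4 on 3 or more arrays, and 2 of the 3 Spty2d1 probe sets were among them. Replicate numbers 1 to 3 recur in every group and paired the arrays, as the processing account describes. The 3′ minus 5′ difference of the beta-actin control, a sign of RNA quality, ran from 1.44 to 1.81 in labelled mutant kainate arrays, 1.62 to 1.82 in control kainate arrays, 1.62 to 1.71 in labelled mutant saline arrays and 1.51 to 1.82 in control saline arrays, which overlap.

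The promoter of Spty2d1 is shown because the series asks about loss of CREB and CREM, which bind the cAMP response element (CRE). The 250 bases before the annotated start lie at chr7:47008415-47008664 on the minus strand of GRCm38.p6 (RefSeq), and are printed 5′ to 3′ along the gene. Capitals mark a GC box and a CCAAT box, both read here on the strand opposite to the gene.
Spty2d1 promoter: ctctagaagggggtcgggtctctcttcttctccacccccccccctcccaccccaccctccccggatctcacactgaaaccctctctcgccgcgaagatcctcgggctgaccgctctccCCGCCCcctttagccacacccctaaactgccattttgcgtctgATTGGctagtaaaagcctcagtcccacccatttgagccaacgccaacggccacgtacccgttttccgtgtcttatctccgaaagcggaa
Motifs were searched on both strands, with N as any base and the CArG box as CCWWWWWWGG, where W is A or T. The full CRE (TGACGTCA), its half-site (TGACG), the AP-1 site (TGANTCA) and the CArG box bound by SRF each had 0 matches in this window. Among all 32851 RefSeq windows of the same length these motifs were found in 1.55%, 17.8%, 6.75% and 1.47%. The half-site lies within the full CRE, so the first 2 shares overlap. The GC box (GGGCGG) had 1 match, 132 to 127 bases before the start, and was found in 32.7% of windows. The CCAAT box (CCAAT) had 1 match, 89 to 85 bases before the start, and was found in 33.8%. No match says only that these letters are not in this window.

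The f probe set is the one by whose values the gene was chosen. In labelled mutant kainate arrays it read 6.43, 6.06 and 6.11, and in control kainate arrays 8.37, 8.60 and 8.03. In labelled mutant saline arrays it read 5.61, 5.89 and 5.55, and in control saline arrays 6.65, 6.79 and 6.25. Control kainate arrays stood alone at the top, and their lowest value exceeded the highest value of the control saline arrays by 1.24. Groups without overlap in that direction, whatever the gap, were found for 13.1% of tested probe sets.

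The 4 groups had an order. Labelled mutant saline arrays were lowest (5.68 ± 0.178, SD, n = 3), then labelled mutant kainate arrays (6.20 ± 0.198), then control saline arrays (6.56 ± 0.283), then control kainate arrays (8.34 ± 0.285). The middle pair overlapped, since the highest labelled mutant kainate value of 6.43 was above the lowest control saline value of 6.25. The other neighbours in this order did not overlap. Within an array these means stood at the 72.4th, 77.6th, 80.3rd and 93.4th percentile of all probe sets in that order. The spread within groups was ordinary, with a pooled SD of 0.241 against a median of 0.222 over the tested probe sets.

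**Figure D1:**
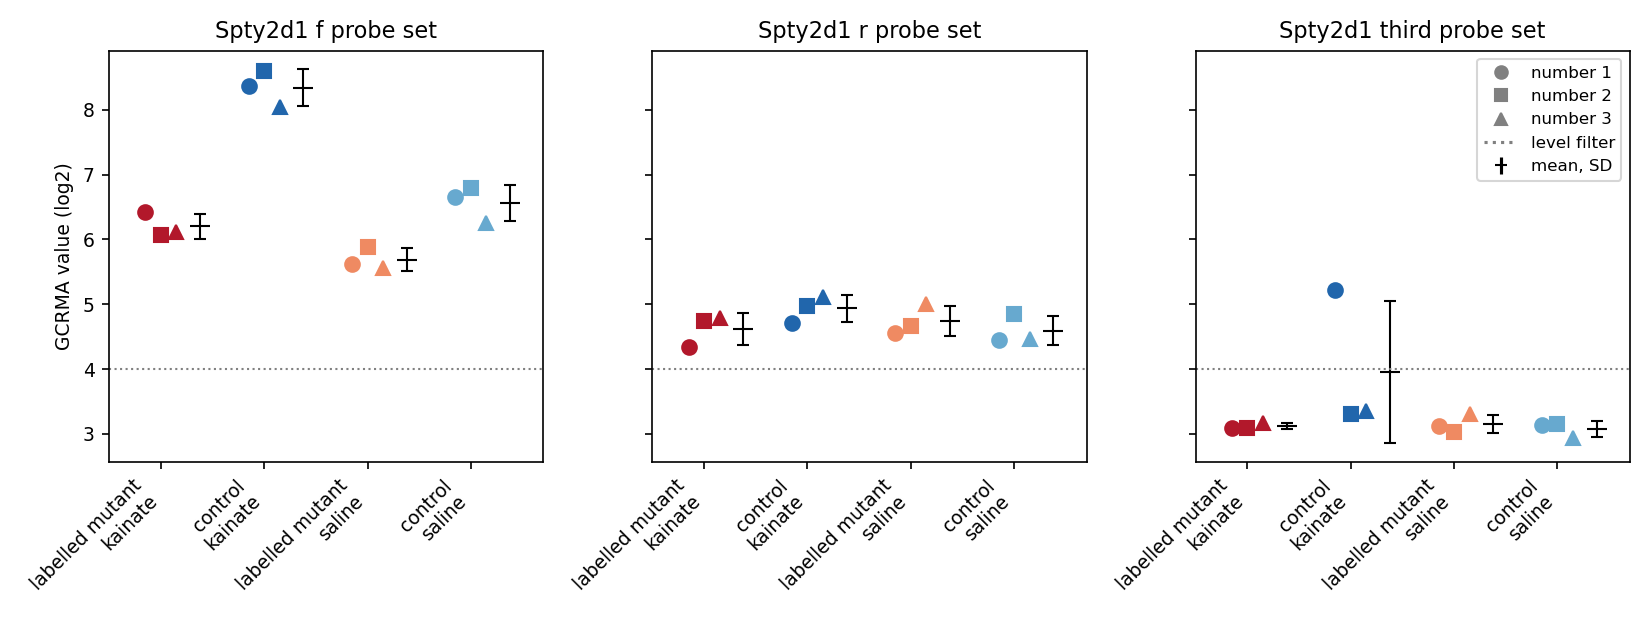
GCRMA values (log2) of the 3 Spty2d1 probe sets on each of the 12 arrays, by group, with shape giving the replicate number, bars the group mean and SD, and the dotted line the level of 4 used in the filter. The f probe set has control kainate arrays between 8.03 and 8.60, above all others, the r probe set stays between 4.34 and 5.12, and the third probe set has 1 high array at 5.22.

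Kainate against saline was the first comparison for the f probe set. In labelled mutant mice its kainate change was 0.52 (1.43-fold, SE 0.193, unadjusted 95% confidence interval 0.089 to 0.95). Its 3 pairs of arrays gave 0.81, 0.18 and 0.56, all above 0 but unequal in size. The values did not overlap, with a gap of 0.18 between the groups, as was so for 3.66% of tested probe sets in that direction. The change did not pass the test (limma adjusted p = 0.712, unadjusted p = 0.0226). In this comparison 0.174% of tested probe sets passed at an adjusted p of 0.05, 11 in all, or 23 with the block.

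In control mice the f probe set was 1.77 (3.42-fold) higher with kainate. The change was nearly the same for each replicate number, at 1.73, 1.81 and 1.79. That is the change for which the probe set was chosen, and it is given without a test. By size it was the 7th of 6334 changes, and 0.158% of tested probe sets passed in this comparison (10 by limma, or 37 with the replicate number as a block).

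The change in labelled mutant mice minus that in control mice was -1.26. This difference was -0.91, -1.63 and -1.23 for the replicate numbers, below 0 in 3 of 3. It was the 3rd largest of 6334 by size, and since it draws on the arrays that chose the probe set, that rank is a description. Across all probe sets 0% passed for the difference of kainate changes by limma (147 had an unadjusted p under 0.05), and the same count with the block was 0 (566 with an unadjusted p under 0.05). On the linear scale the mean signal was 74.0 ± 10.5 with kainate and 51.7 ± 6.54 with saline in labelled mutant mice, a difference of 22.4. In control mice it was 327 ± 63.3 with kainate and 95.7 ± 17.9 with saline, a difference of 232. The smaller change in labelled mutant mice was therefore seen on both scales.

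Genotype was the second comparison. After kainate, the f probe set was lower in labelled mutant than in control arrays, with a difference of -2.14 on the log2 scale (4.39-fold), with -1.94, -2.54 and -1.92 for the replicate numbers. This was the largest change by size of the 6334 tested, and it belongs to the values that chose the probe set. In this comparison 0.0632% of probe sets passed, 4 in all, or 7 with the block. The gap between the highest labelled mutant value and the lowest control value was 1.61, and groups without overlap in that direction, whatever the gap, were found for 7.63% of tested probe sets.

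With saline the difference had the same sign. The f probe set was at -0.88 in labelled mutant against control arrays (1.84-fold, SE 0.193, unadjusted 95% confidence interval -1.31 to -0.45), with -1.03, -0.91 and -0.69 for the replicate numbers. The groups did not overlap, with a gap of 0.36, which held for 4.33% of tested probe sets in that direction. The difference did not pass the test (limma adjusted p = 0.435, unadjusted p = 0.000961), and it stood 14th of 6334 by unadjusted p. In this comparison 0% of probe sets passed by limma (246 had an unadjusted p under 0.05), and 9 passed with the block, without the f probe set (adjusted p = 0.0586).

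**Figure D2:**
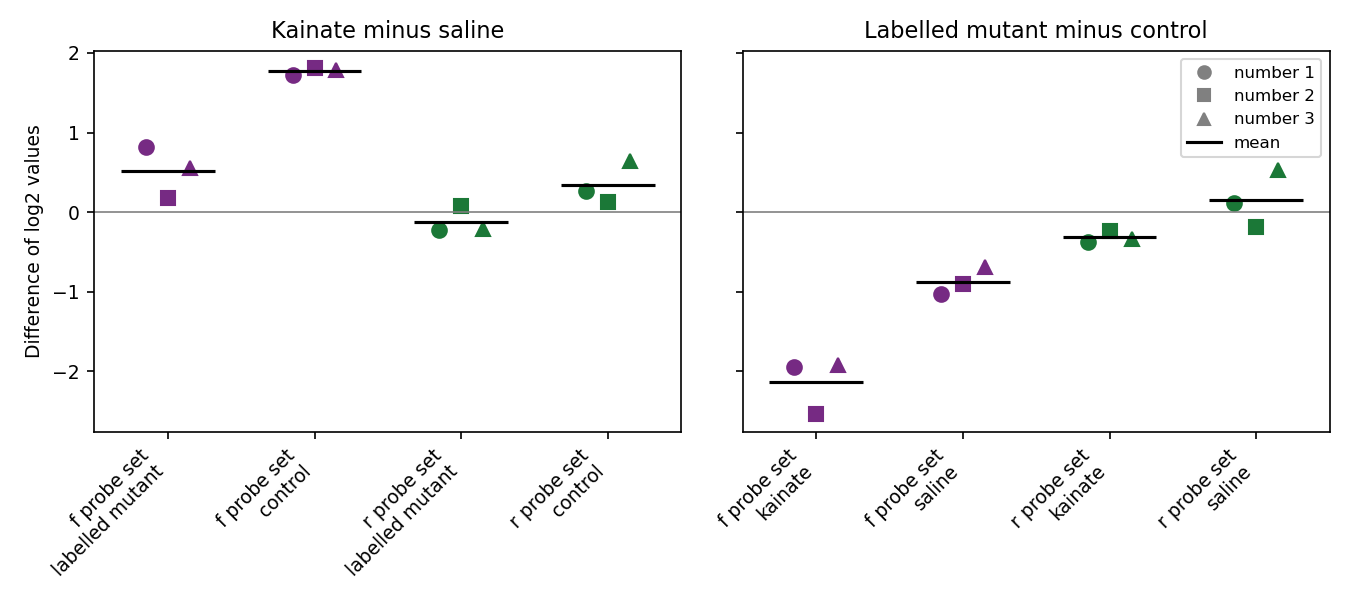
Differences of log2 values within each replicate number for 2 Spty2d1 probe sets, kainate minus saline on the left and labelled mutant minus control on the right, with lines at the means. For the f probe set the kainate changes lie between 0.18 and 0.81 in labelled mutant mice and between 1.73 and 1.81 in control mice, while the r probe set stays within 0.65 of 0 in all 12 differences.

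The r probe set rests on the same accession, and none of its comparisons passed the test. It read 4.34, 4.74 and 4.79 in labelled mutant kainate arrays and 4.71, 4.98 and 5.12 in control kainate arrays. It read 4.56, 4.67 and 5.00 in labelled mutant saline arrays and 4.45, 4.85 and 4.47 in control saline arrays. All groups overlapped with each other. The kainate change was -0.12 in labelled mutant mice (SE 0.177, unadjusted 95% confidence interval -0.52 to 0.27, limma adjusted p = 0.976). In control mice it was 0.35 (interval -0.045 to 0.74, adjusted p = 0.428). The difference between these 2 changes was -0.47 (interval -1.02 to 0.084, adjusted p = 1). Labelled mutant minus control was -0.32 after kainate (interval -0.71 to 0.076, adjusted p = 0.914) and 0.15 with saline (interval -0.24 to 0.55, adjusted p = 1). Within replicate numbers some of these comparisons had 1 sign throughout. Labelled mutant minus control after kainate was -0.38, -0.24 and -0.33, and the kainate change in control mice was 0.27, 0.13 and 0.65. The difference of the kainate changes was -0.49, -0.058 and -0.86. With the replicate number as a block none of them passed (limma adjusted p = 0.333 after kainate, 0.144 in control mice and 0.545 for the difference).

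How far the 2 probe sets parted was set against other probe sets that share an accession. There were 93 such pairs among the tested probe sets. The kainate changes in control mice differed by 1.43 between the f probe set and the r probe set, the largest difference of the 93 pairs, whose median was 0.222. The labelled mutant minus control values after kainate differed by -1.82 between the same 2 probe sets, again the largest of 93 in size (median 0.179). With saline they differed by -1.03, also the largest (median 0.141). The kainate changes in labelled mutant mice differed by 0.64, the 5th of 93 (median 0.187), and the differences of kainate changes by -0.79, the 4th (median 0.262). Since the f probe set was chosen for its changes, these ranks are a description.

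The values of the r probe set followed a level shared by many probe sets. On the 12 arrays it had a Pearson r of 0.986 with the median of the 225 other tested probe sets of the same suffix, against 0.407 for the f probe set. These points share the array and its scaling, so the figures are descriptions with no test. That median moved by -0.17 after kainate and 0.07 with saline for labelled mutant minus control, and by -0.06 in labelled mutant and 0.18 in control mice for kainate minus saline. Each has the sign of the change of the r probe set. With an r over 0.95 there were 168 other probe sets of 6333 for the r probe set and 0 for the f probe set. Of the 100 most like the r probe set, 54 carried the r suffix, which 3.55% of those compared carried, and 100 had a mean below 6, as had 52.3% of those compared. In Affymetrix naming, r marks probe sets for which a design rule was dropped, and f marks probes shared within a sequence family.

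**Figure D3:**
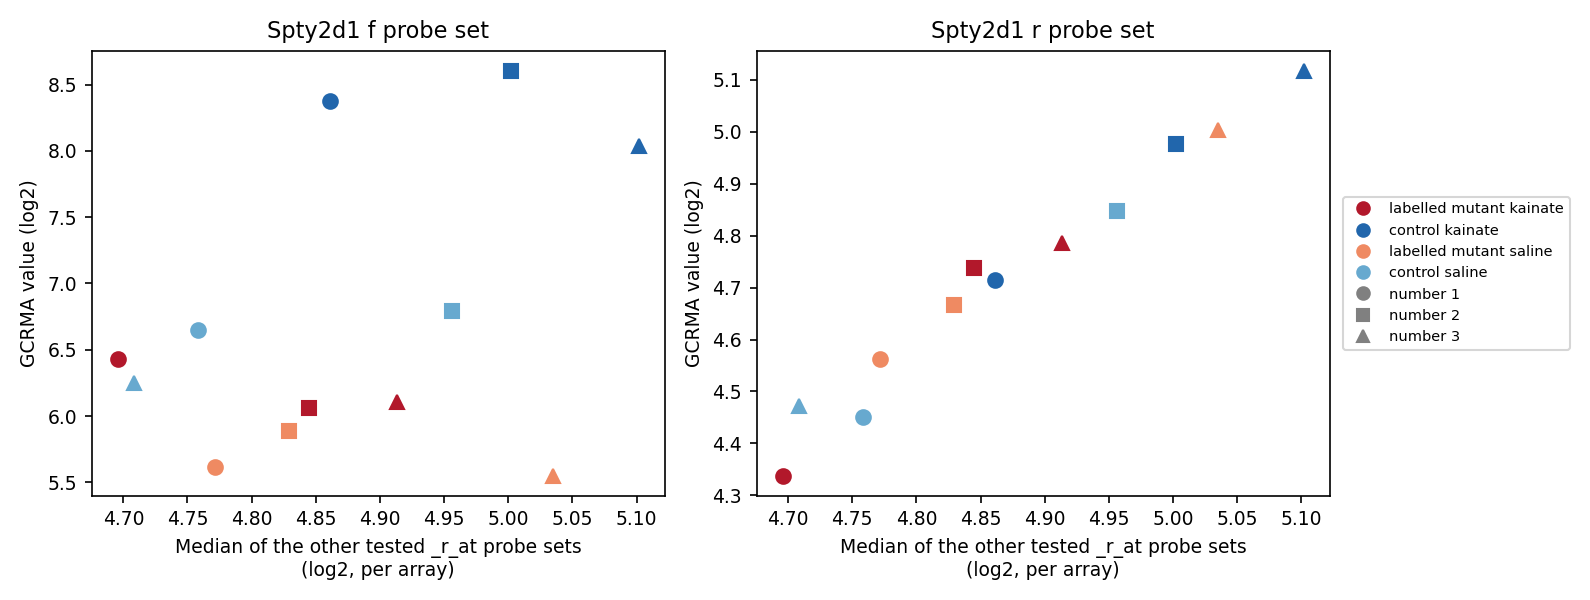
GCRMA values (log2) of the f probe set (left) and the r probe set (right) on the 12 arrays against the per-array median of the 225 other tested probe sets with the r suffix. The points of the r probe set lie close to a line (Pearson r 0.986), and those of the f probe set do not (0.407).

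Because f marks shared probes, the f probe set was also set beside its own class. The table held 603 probe sets with the f suffix, of which 298 were tested. The median over this class was 0.12 for kainate against saline in control mice and -0.003 for labelled mutant minus control after kainate. Which other transcripts its probes match was not analysed here.

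The third probe set was near background. It read 3.10, 3.09 and 3.17 in labelled mutant kainate arrays and 5.22, 3.30 and 3.35 in control kainate arrays. It read 3.13, 3.02 and 3.31 in labelled mutant saline arrays and 3.14, 3.15 and 2.93 in control saline arrays. Only control kainate array number 1 was above the level of 4, and the other 11 lay between 2.93 and 3.35, so the probe set was not tested. All 3 control kainate values were above those of control saline and of labelled mutant kainate arrays, with gaps of 0.15 and 0.13. Among tested probe sets 13.1% and 7.63% had no overlap in these directions, whatever the gap. The kainate change in control mice was 0.88 with that array and 0.25 without it. The labelled mutant minus control difference after kainate was -0.84 with it and -0.21 without it. On that array 7 probe sets exceeded 4 on no other array, and for 2 of these the value was more than 1 above the next highest.

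Other genes known to be induced by neuronal activity gave a scale for the f probe set. Their list was chosen with earlier results of these data known, so its counts and ranges are a description. Of 20 such genes 9 were on the array and 8 were tested, through 9 probe sets. With kainate 6 of the 9 passed in labelled mutant mice and 6 in control mice, all higher (0.174% and 0.142% of all tested probe sets passed as higher), with median changes of 1.30 and 1.10, where the medians over all tested probe sets were -0.04 and 0.02. With the replicate block a further probe set, of Fosl2, passed in labelled mutant (limma adjusted p = 0.0215) and in control mice (0.0188). Nr4a3 then passed in control mice (limma adjusted p = 0.0318) and not in labelled mutant mice (0.0663). The phosphatase gene Dusp5, which restrains ERK, rose by 2.65 in labelled mutant and by 2.37 in control mice. The transcription factor gene Maff rose by 2.65 in labelled mutant and by 2.15 in control mice. The immediate early gene Csrnp1, which encodes a nuclear protein, rose by 2.04 in labelled mutant and by 2.34 in control mice.

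The kainate change differed between the genotypes by -0.31 (Csrnp1) to 0.50 (Maff) over these 9 probe sets, and none passed for that difference. The value of the f probe set was -1.26. After kainate, labelled mutant minus control ran from -0.63 for Nr4a2, an orphan nuclear receptor gene, to 0.52 for Rgs4, a regulator of G protein signalling, and none passed. The value of the f probe set was -2.14. With saline the range was -0.44 (Nr4a2) to 0.32 (Rgs4), against -0.88 for the f probe set. The values of the f probe set lay outside each of these ranges, and since it was chosen by such values no test is given. The r probe set lay inside the ranges after kainate (-0.32) and with saline (0.15), and outside that of the difference (-0.47). The ranges hold for the listed genes alone. Dusp4 and Ccdc86, which passed for genotype after kainate, were not on the list.

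**Figure D4:**
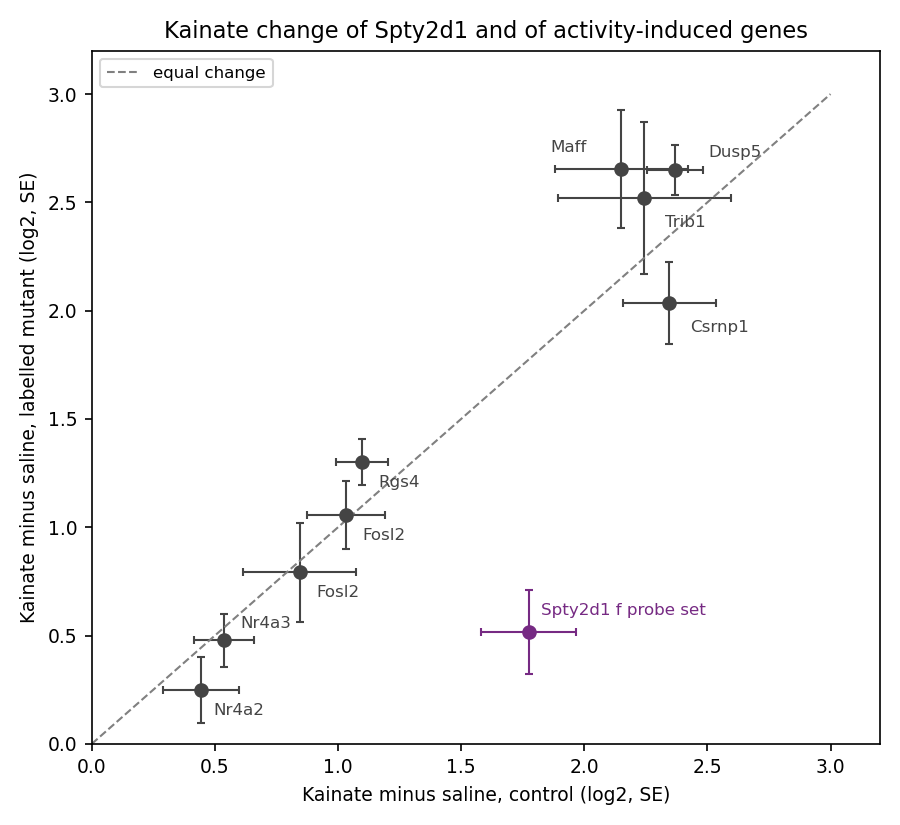
Kainate minus saline (log2, bars are the SE of the limma fit) in labelled mutant mice on the vertical axis and in control mice on the horizontal axis, for the f probe set and 9 probe sets of 8 activity-induced genes. The 9 probe sets lie near the dashed line of equal change, and the f probe set lies below it at 0.52 against 1.77.

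The genes most like the f probe set over the 12 arrays were Hirip3 (Pearson r 0.920), Dnajb4 (0.914), Nr4a2 (0.891), Mn1 (0.888) and Nr4a3 (0.856), among 5923 probe sets of other genes. The 12 points share arrays and treatment groups, so these are descriptions. The Nr4a2 probe set has the r suffix. Hirip3 encodes a histone-binding partner of the HIRA chaperone. It read 5.95, 6.02 and 5.99 in labelled mutant kainate arrays and 6.49, 6.54 and 6.38 in control kainate arrays. It read 5.76, 5.80 and 5.78 in labelled mutant saline arrays and 5.97, 5.88 and 6.18 in control saline arrays. As for the f probe set, control kainate arrays were highest, labelled mutant saline arrays lowest, and the other 2 groups overlapped. Hirip3 was picked by likeness over these same arrays, so the shared order is a description.

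The changes of the alike genes were smaller than those of the f probe set. Labelled mutant minus control after kainate was -0.49 for Hirip3, -0.52 for Dnajb4, a heat shock co-chaperone gene, and -0.63 for Nr4a2. It was -0.29 for Mn1, a transcriptional coregulator gene, and -0.31 for Nr4a3, a second orphan receptor gene. The kainate change was 0.21 in labelled mutant and 0.46 in control mice for Hirip3, and 0.18 in labelled mutant and 0.30 in control mice for Dnajb4. A second Dnajb4 probe set lay under the level for testing and had an r of 0.359.

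**Figure D5:**
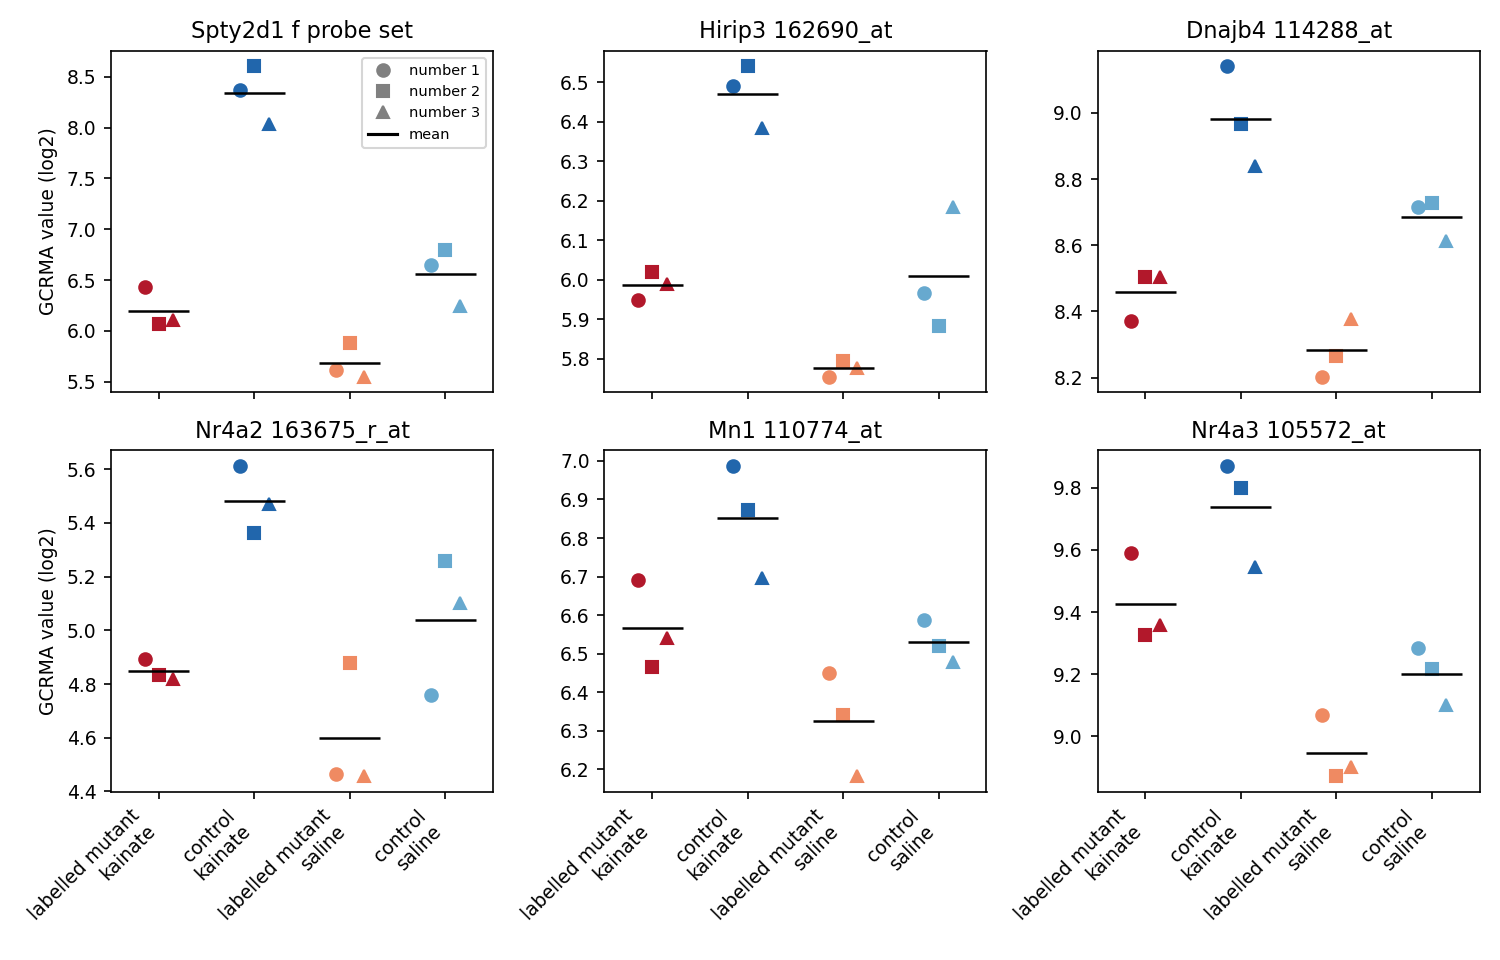
GCRMA values (log2) of the f probe set and of the 5 genes whose values were most like it over the 12 arrays, by group, with shape giving the replicate number and lines the means; each panel has its own scale. In all 6 panels the mean of the control kainate arrays is highest and that of the labelled mutant saline arrays lowest. For the 5 genes this order follows largely from their pick by likeness.

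Other genes of histone handling and elongation were read for comparison. Of 42 further histone chaperones and carriers 12 were on the array and 9 were tested, through 11 probe sets, and 0 passed in any of the 5 comparisons. After kainate their labelled mutant minus control values ran from -1.12 (Tspyl3, a gene of the NAP family) to 0.28 (Tspyl2), with a median of -0.14 against -0.03 over all tested probe sets. With saline Tspyl3 was at -1.41 (limma adjusted p = 0.143). It passed with the block, both with saline (adjusted p = 0.0015) and after kainate (adjusted p = 0.00366). In control mice the kainate changes of the list ran from -0.61 (Nap1l5, another NAP family gene; a second probe set gave -0.13) to 0.36 (Dnajc9, a histone co-chaperone gene), with a median of 0.12. In labelled mutant mice they ran from -0.71 (Nap1l5) to 0.29 (Tspyl2), with a median of -0.10.

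Of 29 factors of transcription elongation through nucleosomes 15 were on the array and 12 were tested, through 20 probe sets, with 0 passing in any of the 5 comparisons. After kainate their labelled mutant minus control values ran from -0.53 (Rnf20, a ligase for histone H2B) to 0.23 (Paf1, a subunit of the PAF1 complex), with a median of -0.05. In labelled mutant mice their kainate changes ran from -0.73 (Aff4) to 0.42 (Rtf1, a second PAF1-linked factor), with a median of -0.07. In control mice they ran from -0.62 (Aff4, a scaffold of the super elongation complex) to 0.46 (Rnf20), with a median of 0.04.

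Of the 3 protein-coding genes on each side of Spty2d1, Tmem86a was the single one with a probe set annotated to it alone. It was higher in labelled mutant arrays, where the f probe set was lower. Its values were 0.43 after kainate (limma adjusted p = 0.914) and 0.40 with saline (adjusted p = 1), and neither passed.

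In whole hippocampus, fewer cells of a type and less RNA per cell cannot be told apart. Of 8 neuron markers 3 were on the array (Fibcd1, Rbfox3 and Snap25), not all of them particular to principal neurons. Their summed linear signal ran from 747 to 1463 in labelled mutant kainate arrays against 1090 to 1947 in control kainate arrays. With saline it ran from 965 to 1309 in labelled mutant arrays against 1077 to 1511 in control arrays. The 3 tested probe sets, of 2 of these genes, were all lower in labelled mutant arrays with both treatments. Their median difference was -0.38 after kainate and -0.14 with saline. Of 5 astrocyte markers 4 were on the array, and their sum ran from 12047 to 12734 in labelled mutant kainate arrays against 10339 to 11974 in control kainate arrays, and from 12887 to 13933 in labelled mutant saline arrays against 11240 to 11821 in control saline arrays. The astrocyte sums thus did not overlap between genotypes with either treatment, nor between kainate and saline in labelled mutant mice. After kainate 4 of the 5 tested astrocyte probe sets were higher in labelled mutant arrays, with values from -0.19 (Aldoc) to 0.44 (Aqp4). Of 6 interneuron markers 3 were on the array (Cnr1, Gad1 and Gad2), and their sum ran from 1240 to 1685 in labelled mutant kainate arrays against 1340 to 1778 in labelled mutant saline arrays, and from 1175 to 1321 in control kainate arrays against 1522 to 1894 in control saline arrays. The interneuron sums were thus lower with kainate, without overlap, in control mice, and overlapped in labelled mutant mice. How often sums over other genes part without overlap was not examined. Of 3 endothelial markers 1 was on the array (Flt1). Its linear signal ran from 18.2 to 22.0 in labelled mutant kainate arrays against 17.5 to 18.8 in labelled mutant saline arrays, which overlap. In control mice it ran from 18.0 to 18.6 with kainate against 17.3 to 17.9 with saline, which do not. Groups without overlap in that direction were found for 13.1% of tested probe sets. The oligodendrocyte marker Mobp (1 of 5 on the array) overlapped in all 4 comparisons of 2 groups. No single marker of these lists passed. Markers of microglia (0 of 5) and choroid plexus (0 of 4) were not used here. The part of cell composition in the Spty2d1 values was not tested.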

How the data were processed

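Per the submitters' processing notes, the authors computed the deposited log2 values by GCRMA in R 2.4.1. Its settings were not stated there. The log2 scale was judged from the values (-1.05 to 13.3). Of 12477 entries 66 were control probe sets and were left out. Gene names came from the platform annotation, in which 10581 probe sets had 1 symbol, 178 several and 1652 none. Neighbouring genes came from the GRCm38.p6 gene table.

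Arrays were grouped by title. Group means were fitted to the 12 arrays and 6334 probe sets that passed a level filter (over 4 on 3 or more arrays) by lmFit and by eBayes with a trend (limma 3.58.1, R 4.3.3), with Benjamini-Hochberg adjustment within each of 5 comparisons at 0.05. Replicates are labelled biological and each is a pool of 3 animals. The number of arrays limits the precision. Alternatives were a replicate block, quantile normalization, both together, median centring, no filter, no trend, arrays numbered 2 and 3 alone, and leaving out each array. Deviations from group means of same-numbered arrays correlated in each of 18 pairs (r 0.361 to 0.881). Pairs with different numbers ran from -0.782 to 0.583, so the 2 ranges overlap. Among arrays of other groups, each of the 12 arrays was most like one of its own number. The numbers were therefore taken to pair the arrays, although their meaning is not labelled. The fit was tested on simulated data.

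Spty2d1, the gene lists and the tests were chosen with earlier results of these data known. Named genes were the 3 probe sets, the 5 genes most alike by Pearson r, the list members that passed or moved most each way, and 3 genes on each side. Python 3.11.15 was used for summaries.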

Additional observations from a re-analysis of the deposited data

How the results depend on the processing

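For the f probe set all 5 values kept their sign under all 19 alternatives, some of which cannot move a value. The block alone, no filter and no trend leave a difference of group means as it is. So does leaving out an array of a group outside the comparison. The kainate change stayed between 0.37 and 0.62 in labelled mutant mice and between 1.62 and 1.93 in control mice, and labelled mutant minus control stayed between -2.29 and -2.00 after kainate and between -1.04 and -0.76 with saline. Neither tested comparison passed under any alternative, with adjusted p from 0.142 to 0.999 for kainate in labelled mutant mice and from 0.0586 to 0.999 for genotype with saline. With the replicate block, the pairing by number, these were 0.168 and 0.0586, and the block changed no call of a Spty2d1 probe set. For the r probe set no comparison passed under any alternative, and its kainate change in labelled mutant mice ran from -0.21 to 0.018 with 1 array left out, above 0 without labelled mutant saline number 3 or labelled mutant kainate number 1. The values of the third probe set rested on control kainate array number 1. With arrays numbered 2 and 3 alone they were 0.28 for kainate in control mice, -0.32 for the difference of kainate changes and -0.19 for genotype after kainate, and with 1 array left out they ran from 0.25 to 1.21, -1.25 to -0.29 and -1.16 to -0.21.

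The number of probe sets that passed was 23 (kainate in labelled mutant mice), 37 (kainate in control mice), 7 (genotype after kainate) and 9 (genotype with saline) with the replicate block, against 11, 10, 4 and 0 without. With the block and quantile normalization it was 21, 26, 8 and 1, and with arrays numbered 2 and 3 alone 600, 635, 12 and 5. With 1 array left out it ran from 6 to 17, 4 to 14, 1 to 5 and 0 to 1. The lowest of these came, for kainate in labelled mutant mice, without labelled mutant kainate number 2 or 3, for kainate in control mice, without control saline number 1 or control kainate number 2, and, for genotype after kainate, without control kainate number 2 or labelled mutant kainate number 3. The causes of these shifts were not tested. Values near the background level limit the r probe set and the third probe set.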

Other observations

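After the mean of each replicate number was subtracted, the genes most like the f probe set were Hirip3 (Pearson r 0.941), Mn1 (0.937), Dnajb4 (0.918), Capn10 (0.914) and Lrrn3 (0.908), over the same 12 arrays. Hirip3, Mn1 and Dnajb4 were thus among the 5 most alike with and without that step. Capn10, a calpain protease gene, was at 5.78 ± 0.147 in labelled mutant kainate arrays against 5.95 ± 0.222 in control kainate arrays (SD, n = 3). Lrrn3, a gene of a neuronal leucine-rich repeat protein, was at 7.68 ± 0.100 in labelled mutant kainate arrays against 7.95 ± 0.0203 in control kainate arrays.

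Probe sets with the r suffix moved together to some degree. The median kainate change of the 226 tested was -0.10 in labelled mutant and 0.26 in control mice, where that of the 5575 tested probe sets with a plain suffix was -0.04 in labelled mutant and 0.01 in control mice.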
